A study of Mus musculus with 6 samples.

Results

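The cytosolic ribosome is built from the protein genes named Rpl (large, 60S subunit) and Rps (small, 40S subunit). The genes described here were taken from the deposited count table by name: symbols made of Rpl or Rps and a number, with their lettered and numbered relatives, plus Rplp0, Rplp1, Rplp2 and Rpsa. Ribosomal S6 kinases and names holding the pseudogene mark -ps were left out. Of the 54232 rows of the table, 89 had such a name, and the 80 with a mean of at least 10 raw CPM (reads scaled to a common library total) over the 6 libraries were kept. By name they comprised 47 large subunit and 33 small subunit genes. GENCODE M21 annotates 3 of them, Rpl6l, Rps3a2 and Rps3a3, as processed pseudogenes, and they were kept because the choice went by name. All 80 were among the 13602 genes tested. The choice used the level over all libraries and no difference between genotypes. Just inside the limit lay Rpl28 at 12.4 and Rpl13a at 13.1 raw CPM, and just outside lay Rpl32l at 8.55 and Rps29 at 5.31 raw CPM. The other 7 genes left out averaged from 0 raw CPM for Rpl10l and Rps12l1 to 2.35 raw CPM for Rps4l. Among them were Rpl23a at 1.24 and Rpl24 at 1.15 raw CPM. These levels count each gene's own row alone.

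Gene expression was measured by RNA-seq of total RNA from GFP-positive regulatory T (Treg) cells of mouse spleen. The groups were 3 libraries from conventional BAF60b knockout (KO) mice, in which the gene is deleted in all cells and not in Treg cells alone, and 3 libraries from wild-type (WT) mice. BAF60b is encoded by Smarcd2 and is a subunit of the SWI/SNF chromatin remodelling complexes, and the series asks what it does in Treg cells. The labels leave out the GFP reporter and the age, sex and number of the mice. Nothing says that each library is a separate mouse, so the p-values speak for the spread among libraries alone.

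A ribosome holds a single copy of nearly every ribosomal protein, so cells need these mRNAs in matched amounts. Many vertebrate mRNAs of this class start with a run of pyrimidines, the 5′ TOP motif, through which mTORC1 and LARP1 tie their translation and stability to nutrient and growth signals. Activated T cells, Treg cells included, raise ribosome production before they divide. Mammalian genomes also hold many processed pseudogenes of these genes, which are near-identical copies without introns.

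The libraries held between 18167053 and 22502804 counted reads. Smarcd2 (chr11:106263179-106272972, mm10) had 58.1, 57.5 and 59.0 CPM in the KO libraries, against 204, 199 and 192 CPM in the WT libraries, in accord with the labels. The defining Treg markers were present in every library, with a summed level of 4402 to 4765 CPM in KO and 4195 to 4340 CPM in WT. Of these 7 markers, 1 was called higher in KO, Ikzf2 (log2 fold change 0.42, edgeR adjusted p = 0.00527), and 0 lower. Xist and the Y-linked Ddx3y showed libraries of different sex makeup in both genotypes. Xist had 88.5, 434 and 0 CPM in KO and 453, 255 and 129 CPM in WT, and Ddx3y had 132, 0 and 214 CPM in KO and 0, 69.0 and 112 CPM in WT. KO 3 therefore had no Xist, KO 2 and WT 1 had no Ddx3y, and the other libraries had both. Of the markers of other cells, those of macrophages, monocytes and neutrophils summed to 14.4 to 81.2 CPM in KO, highest in KO 2, and 24.6 to 30.1 CPM in WT. Those of B cells summed to 1368 to 1553 CPM in KO and 1399 to 1683 CPM in WT, nearly all from Ighm. Dendritic cell markers summed to 65.7 to 80.5 CPM in KO and 69.8 to 93.7 CPM in WT, cytotoxic and NK cell markers to 23.3 to 25.3 CPM in KO and 23.4 to 25.2 CPM in WT, and erythroid and platelet markers to 0.795 to 12.9 CPM in KO and 1.43 to 3.72 CPM in WT. In these lists of other cells, 2 of 16 tested markers were called lower (Cd79b and Klrb1c) and 0 higher, and no marker was at 0 in all libraries. Stress and dissociation genes summed to 728 to 895 CPM in KO and 729 to 982 CPM in WT, and 1 of 6 tested was called lower, Egr1 (log2 fold change -0.38, edgeR adjusted p = 0.00504). Beside these calls, 3.2% of all genes tested were lower and 3.25% higher in KO, so a few calls in such short lists are no result about the lists. The part of sex makeup, Treg markers, other cells and stress genes in the results on ribosomal protein genes was not tested.

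Which row of the table receives a ribosomal protein read can depend on sequence shared with a copy elsewhere in the genome and on the counting of such reads. The start of the Rps6 coding sequence and of the copy Rps6-ps4 is shown first, as an example of an identical pair. Rps10 and its copy, then Rps7 and its copy, are shown because both genes were lower in KO and differ from their most read copy at a few bases, given in capitals. Sequences are coding strand, 5′ to 3′, from GENCODE M21 transcripts (mm10). They cover coding bases 1 to 60 of Rps6 and Rps7 and 379 to 438 of Rps10.
Rps6: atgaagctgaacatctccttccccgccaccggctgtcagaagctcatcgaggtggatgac
Rps6-ps4: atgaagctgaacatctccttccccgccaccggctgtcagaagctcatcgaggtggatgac
Rps10: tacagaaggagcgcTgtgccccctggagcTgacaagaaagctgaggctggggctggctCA
Rps10-ps2: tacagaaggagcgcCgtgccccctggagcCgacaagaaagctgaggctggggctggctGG
Rps7: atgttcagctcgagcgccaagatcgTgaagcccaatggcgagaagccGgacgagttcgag
Gm6472: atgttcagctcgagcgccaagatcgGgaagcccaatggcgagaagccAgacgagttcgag
In Rps6 none of the 750 coding bases differed from Rps6-ps4, in Rps10 5 of the 496 compared differed from Rps10-ps2, and in Rps7 3 of 585 differed from Gm6472.

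The pyrimidine run at the transcription start was looked for in the RefSeq promoter table (GRCm38.p6), which held 59 of the 80 genes. The 30 bases around the annotated start are shown for 4 genes with a long run and for 4 of the 5 genes called lower in KO, with the longest run of C and T in capitals.
Rpl7a (chr2:26910792-26910821, plus strand): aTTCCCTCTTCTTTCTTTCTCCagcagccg
Rpl35 (chr2:39005117-39005146, minus strand): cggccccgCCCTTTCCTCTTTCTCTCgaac
Rpl4 (chr9:64173372-64173401, plus strand): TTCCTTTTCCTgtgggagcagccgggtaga
Rps9 (chr7:3704026-3704055, plus strand): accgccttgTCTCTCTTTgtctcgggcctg
Rps10 (chr17:27635230-27635259, minus strand): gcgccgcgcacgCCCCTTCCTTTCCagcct
Rplp0 (chr5:115559452-115559481, plus strand): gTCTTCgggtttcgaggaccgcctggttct
Rps7 (chr12:28635939-28635968, minus strand): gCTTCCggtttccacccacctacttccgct
Rpl37 (chr15:5116598-5116627, plus strand): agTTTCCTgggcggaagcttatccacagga
A run of at least 8 pyrimidines within 15 bases of an annotated start was found in 27 of the 59 genes (45.8%), against 13.9% of all 27025 genes of the table. Rps10 has such a run in its window, whereas the windows of Rplp0, Rps7 and Rpl37 hold shorter ones at the start that RefSeq annotates. The letters CCGGAAG, the core of many ETS and GABP sites, were found on either strand of the 300-base promoters in 25 of 59 genes (42.4%), against 9.93% of all genes. CACGTG, the E-box that Myc can bind, was found in 6 genes (10.2%), against 8.09% of all genes. AAGATGGC, the core of the YY1 motif, was found in 6 genes (10.2%), against 3.19% of all genes, and TATAAA in 7 genes (11.9%), against 15.7% of all genes.

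Levels of the 80 genes were spread widely. Per kilobase of transcript, the highest large subunit level was that of the stalk protein Rplp1, at 2474 ± 261 CPM per kb (SD over the 6 libraries), followed by Rplp0 at 2076 ± 212 CPM per kb. The lowest was Rpl13a at 12.5 ± 2.85 CPM per kb, below Rpl28 at 16.0 ± 1.78 CPM per kb. Exons of Rpl13a overlap those of other genes on the same strand over 35.4% of their length. No source used here says how reads in such stretches were counted, and the part of this overlap in its level was not tested. In the small subunit, Rps14 was highest at 2671 ± 226 and Rps15 next at 2267 ± 187 CPM per kb, and Rps16 was lowest at 17.5 ± 2.08, next to Rps23 at 19.4 ± 0.896 CPM per kb. Neighbours in the order at both ends lay within about 1 to 2 SD of each other, but this SD includes shifts that both genes share. Within every library, Rplp1 lay above Rplp0 and Rps14 above Rps15. At the low end, Rpl13a lay above Rpl28 in KO 3 and Rps16 above Rps23 in WT 1, so the rank there is not firm.

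Reads of this class lay both in the genes' own rows and in rows of their copies. Outside the names chosen above, the table held 656 rows that share sequence with the 80 genes. Of these, 644 are annotated as processed pseudogenes, 501 had reads and 79 had a mean of at least 10 CPM. Copies took 0.909%, 0.849% and 0.896% of all reads in KO 1, KO 2 and KO 3, and 0.961%, 0.972% and 1.05% in WT 1, WT 2 and WT 3. For 51 genes, the most read copy could be compared with the coding sequence base by base, and for 13 of them it was identical: Rpl12, Rpl13, Rpl27a, Rpl28, Rpl31, Rpl36a, Rpl38, Rpl5, Rps12, Rps16, Rps27, Rps28 and Rps6. In 12 of these 13 the copy had more reads than the gene, the exception being Rps28, whereas the copy had more reads in 5 of the 38 genes whose copy was not identical. Rps6 itself averaged 1014 reads per library and Rps6-ps4, an intronless row on chromosome 2 whose start is printed above, averaged 15058 reads. No source used here says how reads that match several places were counted, so a low level of such a gene, and the level of its copy, cannot be read as expression of either locus. The level limit went by own rows, so it left out Rpl23a and Rps29, whose copies averaged 327 and 141 raw CPM. Both are also missing from the counts with copies summed below.

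**Figure D1:**
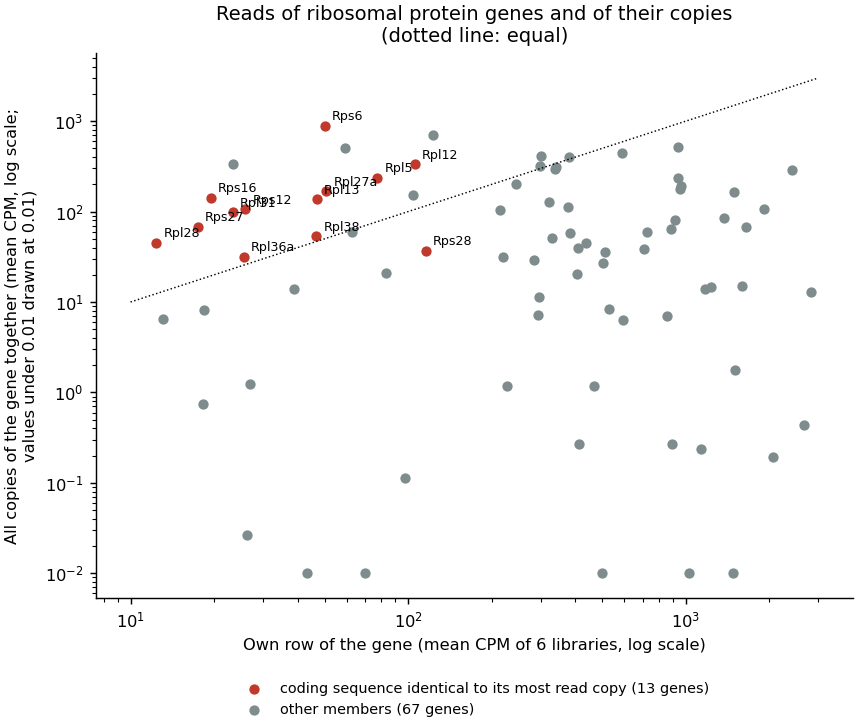
Mean CPM over the 6 libraries of each gene's own row (x axis, log scale) and of all its copies together (y axis, log scale); red points are the 13 genes whose coding sequence is identical to their most read copy and grey points are the other 67 genes. The red points other than Rps28 lie above the dotted line of equal reads, at own levels near or under 100 CPM.

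Together, the ribosomal protein genes took a smaller share of the reads in KO Treg cells than in WT Treg cells. Their rows held 4.43%, 4.15% and 4.41% of all reads in KO 1, KO 2 and KO 3, against 4.73%, 4.78% and 5.05% in WT 1, WT 2 and WT 3. The genotypes did not overlap, and the means were 4.33 ± 0.153% in KO and 4.86 ± 0.174% in WT (SD, n = 3 each), a KO to WT ratio of 0.892. Counted with their copies, the share was 5.34%, 5.004% and 5.30% in KO and 5.69%, 5.75% and 6.10% in WT, again a ratio of 0.892. In bulk libraries, fewer cells of a type with high ribosomal protein mRNA and less of this mRNA per cell cannot be told apart, and neither can a change in the rest of the RNA. KO 2, which had no Ddx3y and the most myeloid marker reads, had the lowest share of the KO libraries, and WT 1, also without Ddx3y, had the lowest of the WT libraries. KO 3, without Xist, lay just below KO 1, and WT 1 lay above every KO library. The part of sex makeup and myeloid cells in these shares was not tested.

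Both subunits shared in the difference. Large subunit genes held 2.19%, 2.04% and 2.23% of reads in KO, against 2.34%, 2.37% and 2.52% in WT. Small subunit genes held 2.24%, 2.11% and 2.18% of reads in KO, against 2.39%, 2.42% and 2.53% in WT. Neither subunit overlapped between genotypes. The ratio of large to small subunit reads was 0.975, 0.964 and 1.02 in KO and 0.982, 0.979 and 0.996 in WT, with means of 0.987 ± 0.0306 and 0.986 ± 0.00907 (SD, n = 3 each). The WT values lay inside the KO range, and KO 3 had the highest ratio of the 6 libraries. With every gene weighted equally, the ratio of geometric means was 0.707, 0.688 and 0.750 in KO and 0.699, 0.700 and 0.716 in WT, and the genotypes overlapped again.

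**Figure D2:**
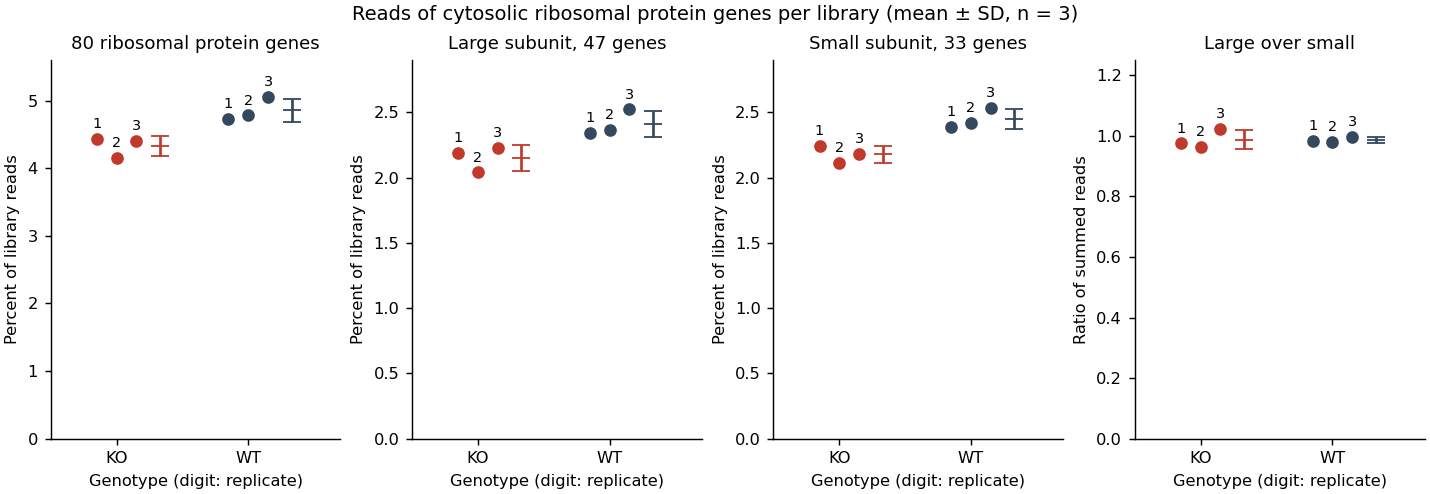
Percent of library reads in all 80 ribosomal protein genes, in the 47 large and in the 33 small subunit genes, and the ratio of large to small subunit reads; points are libraries (digit: replicate), KO left and WT right, and bars are mean ± SD (n = 3). The KO points lie below all WT points in the first 3 panels, and the ratio overlaps between genotypes.

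Gene by gene, the difference was small and mostly in 1 direction. With edgeR's quasi-likelihood test and Benjamini-Hochberg adjustment over all 13602 genes (adjusted p under 0.05), 5 of the 80 genes were lower in KO and 0 were higher. That is 6.25% of the genes called, close to the 6.45% of all genes tested, of which 3.2% were lower and 3.25% higher in KO. The count of calls is therefore near the background and is not a result about this class. DESeq2 called 22 genes lower and 0 higher, beside 3.82% of all genes called lower, and limma-voom called 8 lower and 0 higher, beside 3.21% of all genes called lower. At an unadjusted p under 0.05 in edgeR, 42 of the 80 genes passed, against 2780 of all 13602 genes.

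The direction was shared more widely than the calls. The log2 fold change (KO minus WT) was below 0 in 70 of the 80 genes, against 48.9% of all genes tested. Its median was -0.15, which is a level 10.2% lower in KO, against 0.00 over all genes tested, and it ran from -0.31 for Rpl37 to 0.45 for Rpl22l1. The median was -0.15 in the large and -0.16 in the small subunit. The standard error of a single gene had a median of 0.07. In 34 of the 80 genes (42.5%), all 3 KO values lay below all 3 WT values, against 13% of all genes tested, and in 0 did all KO values lie above, against 12.6%. These 34 were 17 of the 47 large and 17 of the 33 small subunit genes. The lowest of the 6 libraries was a KO library in 77 genes, and was KO 2 in 51 of them. WT 3 was the highest library in 51 genes.

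**Figure D3:**
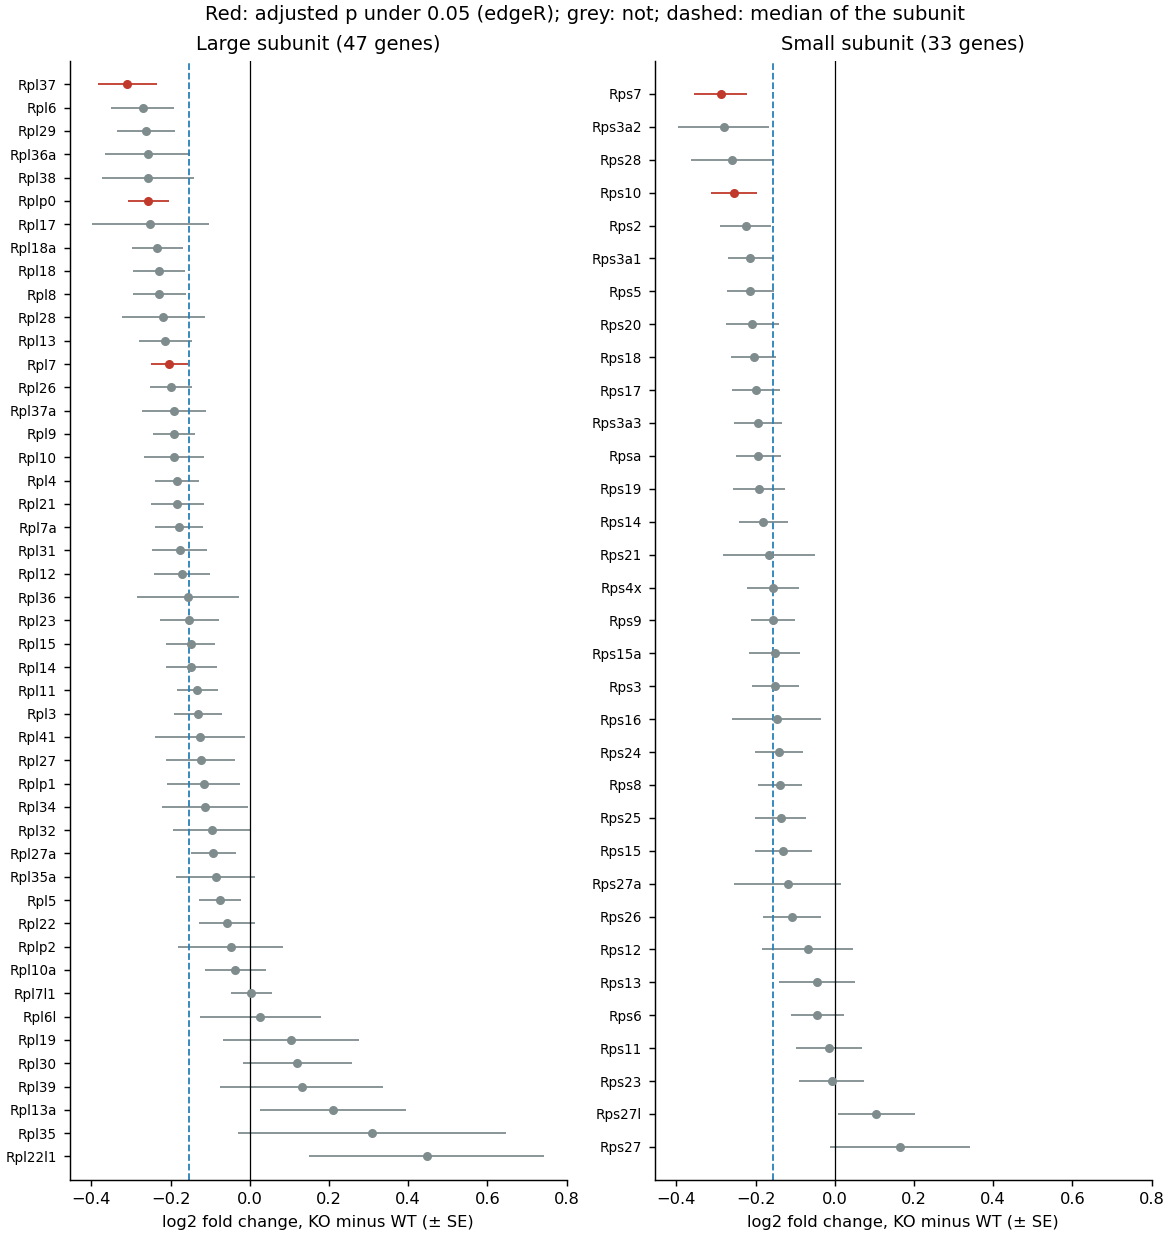
Log2 fold change, KO minus WT, with its standard error, for the 47 large (left) and 33 small subunit genes (right), sorted within each subunit; red marks the 5 genes called by edgeR and the dashed line is the median of the subunit. Most points lie between -0.3 and 0. Of the 10 at or above 0, Rpl7l1 has a narrow error (SE 0.05) and Rpl35 the widest (SE 0.34).

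The 3 large subunit genes called lower were Rplp0, Rpl7 and Rpl37. Rplp0 (chr5:115559467-115563727), the base of the stalk that recruits elongation factors to the ribosome, had 2677, 2519 and 2512 CPM in KO, against 2964, 3078 and 3169 CPM in WT. All KO values lay below all WT values, and the log2 fold change was -0.26 (SE 0.05, edgeR adjusted p = 0.0172). Copies of Rplp0 had few reads, 0.00458 times those of the gene. Rpl7 (chr1:16101295-16104662), a protein of the 60S core, had 1549, 1561 and 1489 CPM in KO, against 1753, 1756 and 1786 CPM in WT. The KO libraries all lay below the WT libraries, by more than either spread (log2 fold change -0.20, SE 0.05, edgeR adjusted p = 0.0286). Rpl37 (chr15:5116645-5119140), a zinc-binding protein of the large subunit, had 216, 189 and 186 CPM in KO, against 232, 232 and 268 CPM in WT. WT 3 was the highest and the groups did not overlap (log2 fold change -0.31, SE 0.07, edgeR adjusted p = 0.0363).

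The 2 small subunit genes called lower were Rps10 and Rps7. Rps10 (chr17:27630418-27636669), which sits on the head of the 40S subunit and is ubiquitinated on stalled ribosomes in human cells, had 289.9, 278 and 251 CPM in KO, against 324, 324 and 329 CPM in WT. The WT libraries were close together and all above the KO libraries (log2 fold change -0.26, SE 0.06, edgeR adjusted p = 0.0276). The row Rps10-ps2, which differs from it at the bases shown in capitals, had 284, 263 and 289 CPM in KO and 310.2, 313 and 347 CPM in WT, also without overlap (log2 fold change -0.21, SE 0.06, edgeR adjusted p = 0.0634). Rps7 (chr12:28630854-28635953), a 40S protein that in mammalian cells can also bind the p53 regulator MDM2, had 918, 882 and 776 CPM in KO, against 999.7, 1088 and 1056 CPM in WT. KO 3 was the lowest and no KO value reached a WT value (log2 fold change -0.29, SE 0.07, edgeR adjusted p = 0.0321).

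None of these 5 calls held with every library left out in turn. Rplp0 missed the threshold without KO 3, WT 2 or WT 3 (highest adjusted p = 0.0749) and Rps10 without WT 1, WT 2 or WT 3 (highest 0.0940), both by edgeR. Rps7 missed it without KO 3 or any 1 WT library (highest 0.128), Rpl7 without any library other than KO 2 (highest 0.0968), and Rpl37 without any library other than KO 1 (highest 0.120). Without KO 3, 5 genes were called lower, and only Rps10 (adjusted p = 0.0433) was shared with the 5 above. Without KO 1, 14 were called lower, and without WT 1, WT 2 or WT 3 the counts were 1, 0 and 0. The share of all genes called lower in each of these fits is not given here, so the counts are no result about this class.

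Among the other stalk proteins, which join the base in pairs, Rplp1 had 1159, 1041 and 1354 CPM in KO, against 1231, 1222 and 1400.0 CPM in WT. Its log2 fold change was -0.12 (edgeR adjusted p = 0.537), and the groups overlapped. Rplp2 had 453, 405 and 613 CPM in KO and 487, 472 and 562 CPM in WT, with KO 3 the highest of all 6 (log2 fold change -0.05, edgeR adjusted p = 0.884). Without KO 3 the log2 fold changes were -0.22 for Rplp1 and -0.24 for Rplp2 (edgeR adjusted p = 0.138 and 0.125).

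Rpl5 and Rpl11 carry 5S rRNA into the large subunit and, in mammalian cells, bind MDM2 when assembly is disturbed. Rpl11 had 339, 324 and 316 CPM in KO, against 342, 358 and 374 CPM in WT, without overlap but short of the threshold (log2 fold change -0.13, edgeR adjusted p = 0.181). Rpl5 had 75.9, 72.8 and 77.7 CPM in KO and 75.5, 81.2 and 82.0 CPM in WT, and the groups overlapped (log2 fold change -0.08, edgeR adjusted p = 0.475). Rpl5 is also 1 of the genes with an identical and more highly read copy.

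Rpsa, a 40S protein also described as a laminin receptor, had 2399, 2243 and 2120.1 CPM in KO, against 2515, 2581 and 2637 CPM in WT. No KO value reached the WT range, and the gene missed the threshold (log2 fold change -0.19, SE 0.06, edgeR adjusted p = 0.0784, and 0.0414 to 0.224 with 1 library left out). Rps14, the gene with the highest small subunit level per kilobase, had 1617, 1402 and 1465 CPM in KO, against 1693, 1637 and 1754 CPM in WT, also without overlap (log2 fold change -0.18, edgeR adjusted p = 0.125). Rps6, the substrate of the S6 kinases downstream of mTORC1, had 47.9, 49.3 and 50.7 CPM in KO, against 46.8, 51.5 and 54.1 CPM in WT. These groups overlapped (log2 fold change -0.04, edgeR adjusted p = 0.773).

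Ubiquitin is made in part as a fusion to a ribosomal protein. Rps27a, which carries ubiquitin on a small subunit protein, had 61.7, 71.7 and 47.5 CPM in KO and 74.7, 60.7 and 60.8 CPM in WT (log2 fold change -0.12, edgeR adjusted p = 0.689). The genotypes overlapped, and KO 3 was the lowest library.

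Several ribosomal proteins have a paralog. Rpl22, needed in mice for the development of alpha-beta T cells, had 428, 359 and 424 CPM in KO and 422, 402 and 437 CPM in WT (log2 fold change -0.06, edgeR adjusted p = 0.714). Its paralog Rpl22l1 had 23.7, 19.0 and 50.5 CPM in KO and 21.6, 21.0 and 26.0 CPM in WT. KO 3 alone stood high, and the log2 fold change of 0.45 (SE 0.30, edgeR adjusted p = 0.455) became -0.10 without it. Rps27 had 14.4, 16.1 and 24.8 CPM in KO and 15.2, 17.5 and 16.7 CPM in WT, and Rps27l, a p53 target, had 27.9, 27.2 and 26.9 CPM in KO and 25.02, 22.1 and 29.1 CPM in WT. Neither was called (log2 fold changes 0.16 and 0.11, edgeR adjusted p = 0.670 and 0.605), and both overlapped between genotypes. Rps27 has an identical, more highly read copy, and its value became -0.07 with copies summed and -0.12 without KO 3.

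Rpl39, which lines the exit tunnel for the growing chain, had 246, 226 and 419.6 CPM in KO and 259, 236 and 319.5 CPM in WT, with the 3rd library the highest in both genotypes (log2 fold change 0.13, edgeR adjusted p = 0.783, and -0.20 without KO 3). Its testis-enriched paralog Rpl39l stayed at or under 0.712 CPM. Rpl3 had 941, 843 and 905 CPM in KO and 933, 968 and 1042 CPM in WT (log2 fold change -0.13, edgeR adjusted p = 0.262), while Rpl3l, its muscle paralog, averaged 0.0169 CPM in KO and 0.0168 CPM in WT. Rpl10, a late-joining 60S protein encoded on the X chromosome, had 449.5, 418 and 358 CPM in KO and 449, 475 and 475 CPM in WT (log2 fold change -0.19, edgeR adjusted p = 0.193), and its testis paralog Rpl10l had 0 reads. With 3 reads as the limit of a 0 count, that allows up to 0.133 to 0.165 CPM per library, for counting error only.

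Rps4x, also X-linked, had 1919, 1793 and 1713 CPM in KO and 1885, 1995 and 2167 CPM in WT (log2 fold change -0.16, edgeR adjusted p = 0.211), and Rps4l had 1.71 to 3.01 CPM over all libraries. Rpl7l1, which acts in the assembly of the large subunit, had 98.4, 98.4 and 96.3 CPM in KO and 103, 92.3 and 96.9 CPM in WT (log2 fold change 0.00, SE 0.05, edgeR adjusted p = 0.982). It lay among the WT values, unlike Rpl7, which was called lower. The difference between the pair was not tested.

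The KO libraries differed among themselves, KO 3 in both directions and KO 2 mostly downward. The log2 difference of each gene between a library and the other libraries of its genotype had an SD over the 80 genes of 0.159, 0.206 and 0.332 in KO 1, KO 2 and KO 3, and of 0.0765, 0.111 and 0.127 in WT 1, WT 2 and WT 3. The number of genes more than 0.25 from the other libraries of the genotype was 7, 21 and 26 in KO 1, KO 2 and KO 3, and 1, 5 and 12 in WT 1, WT 2 and WT 3. The median over the genes was 0.04, -0.14 and 0.09 in KO 1, KO 2 and KO 3, and -0.08, -0.03 and 0.10 in WT 1, WT 2 and WT 3. In KO 3, Rpl35 stood farthest above, with 30.0, 25 and 73.6 CPM in KO and 33.5, 28.9 and 42.0 CPM in WT, followed by Rpl22l1 and Rpl39. Exons of Rpl35 overlap those of genes on the opposite strand over 66.2% of their length, and no source used here says whether counting used strand. In the other direction, Rpl17 had 123, 133 and 80.04 CPM in KO and 129, 137 and 133 CPM in WT, with KO 3 alone low.

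The 10 genes with a log2 fold change of 0 or more rested largely on that library: 8 of them were highest in KO 3, and 8 became negative without it. Leaving KO 3 out gave 77 of 80 genes below 0 and a median of -0.18. Without KO 1 or KO 2 the count below 0 was 68 and 63. Without WT 1, WT 2 or WT 3 it was 70, 69 and 67, beside 70 with all libraries. Short transcripts were high in KO 3 relative to KO 1 and KO 2. Its median log2 difference was 0.25 over the 28 genes with transcripts of up to 600 bases. It was 0.09 over the 19 of 600 to 800 bases and 0.01 over the 33 longer ones. The same medians were -0.24, -0.13 and -0.11 in KO 2 and 0.04, 0.04 and 0.08 in KO 1. Each library is measured against the others of its genotype, so high in KO 3 and low in KO 2 cannot be told apart. In WT 3 the medians were 0.18, 0.04 and 0.09. Over all genes tested, KO 3 had a median of 0.16 for transcripts of up to 400 bases (393 genes) and 0.03 for those of 400 to 600 bases (1031 genes). Across the 80 genes the differences of KO 3 and WT 3 had a Spearman rho of 0.51, and transcript length had one of -0.33 with each of them. With length, KO 2 and WT 2 had a rho of 0.34 each, KO 1 of 0.18 and WT 1 of -0.02. These correlations are descriptions, since the genes share libraries and opposite signs within a genotype are partly built into the differences. The part of transcript length in the results was not tested.

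**Figure D4:**
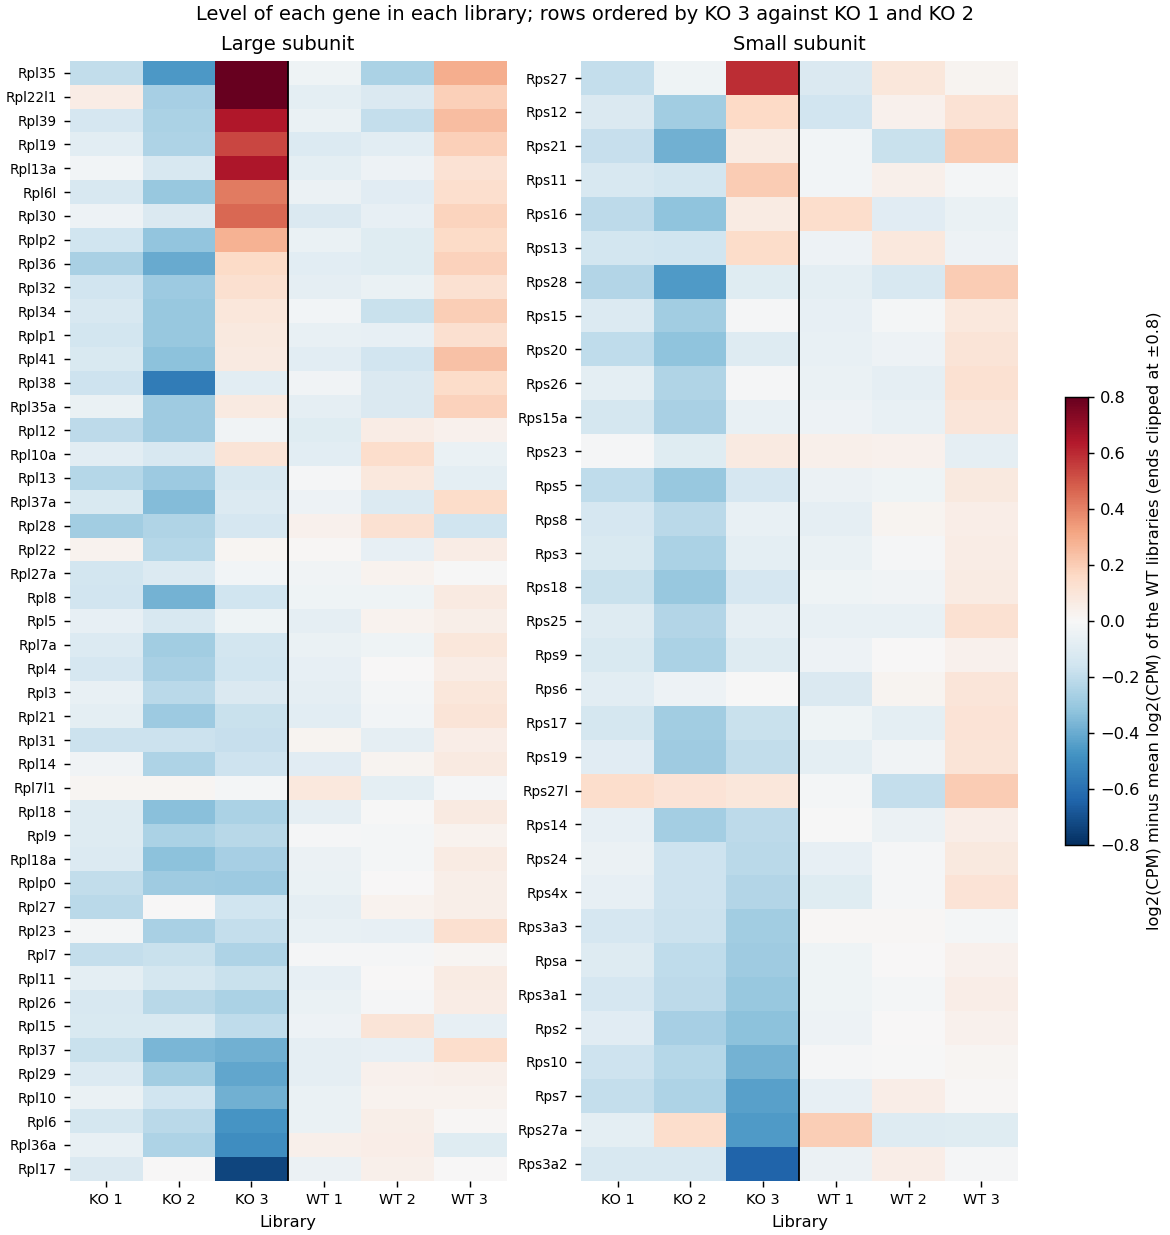
Log2 CPM of each ribosomal protein gene in each library, minus its mean in the WT libraries, with KO libraries left and WT libraries right of the line; rows are ordered by the difference of KO 3 from the other KO libraries and colours are clipped at ±0.8. KO 1 and KO 2 are blue in most rows, while KO 3 goes from red at the top to blue at the bottom.

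Adding the reads of copies to each gene, a step chosen after the data were seen, changed the picture most for genes whose reads lie mainly in copies. Rows that the name rule matched were not added to another gene, so the pseudogenes Rpl6l, Rps3a2 and Rps3a3 stayed as genes of their own. With copies summed, 11 of the 80 genes were called lower in KO and 0 higher, against 3.48% of all 13384 genes called lower, and the 11 included the 5 above. The 6 others were Rpl12, Rpl13, Rpl15, Rpl28, Rpl29 and Rps12, of which Rpl29 alone has more reads of its own than in copies. All KO values lay below all WT values in 42 of 80 genes, against 13.2% of all genes, and the median log2 fold change was -0.16. Rps3a2 and Rps3a3 were among these 42. Among the 19 genes whose copies held at least as many reads as the gene, the median was -0.15 for the own rows and -0.23 with copies summed, and the number without overlap was 5 for the own rows and 15 with copies summed. In the other 61 genes the median was -0.16 either way. Their copies hold fewer reads than the genes, so summing can move these values less, and the grouping partly fixes this contrast.

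Rps6 with its copies had 946, 878 and 724 CPM in KO, against 985, 1061 and 1033 CPM in WT. No KO value reached a WT value, and the log2 fold change was -0.27, against -0.04 for its own row, with an edgeR adjusted p of 0.0929. Rps12 with its copies had 129, 121 and 108 CPM in KO, against 136, 147 and 154 CPM in WT (log2 fold change -0.30, edgeR adjusted p = 0.0312, and 0.0529 without KO 3), while its own row had -0.07. Rpl12, part of the stalk base, had 419, 376 and 392.1 CPM with its copies in KO, against 457, 495 and 489 CPM in WT (log2 fold change -0.28, edgeR adjusted p = 0.0141, and 0.0296 without KO 3). In each of these genes the groups did not overlap. Without KO 3, 7 genes were called lower with copies summed, and none of them were among the 5 called from own rows. The share of all genes called lower in that fit is not given here.

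**Figure D5:**
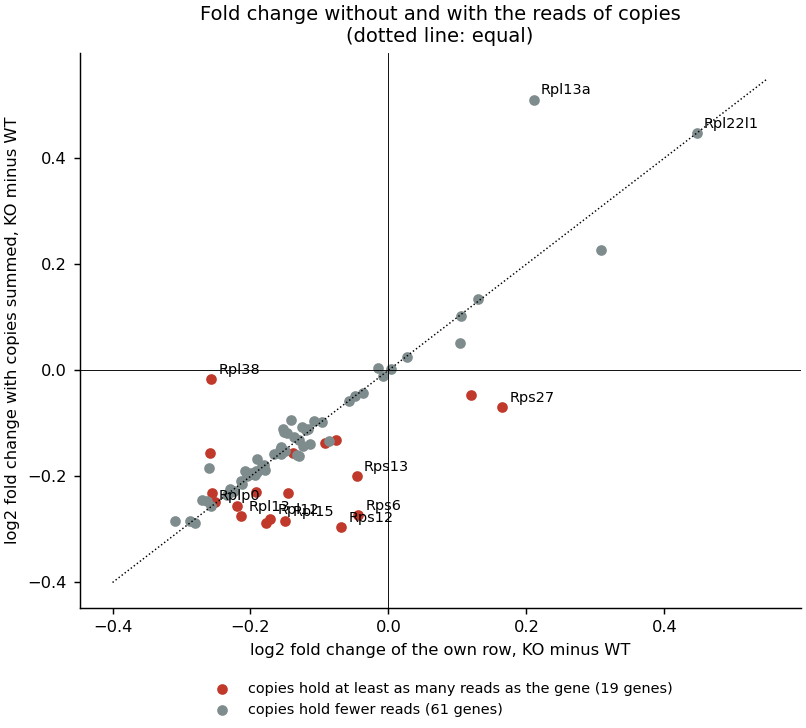
Log2 fold change, KO minus WT, of each gene's own row (x axis) and with the reads of its copies added (y axis); red points are the 19 genes whose copies hold at least as many reads as the gene, grey points the other 61, and the dotted line marks equal values. Rps6, Rps12 and Rps13 lie near 0 on the x axis and between -0.20 and -0.30 on the y axis.

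Genes that share the 5′ TOP motif or act in elongation were listed beside the ribosomal proteins. Of 23 tested, 2 were called lower and 0 higher, 21 had a log2 fold change below 0, the median was -0.12 and 15 had all KO values below all WT values. Over all genes tested, 3.2% were called lower, 48.9% lay below 0 and 13% had all KO values below all WT values. Rack1, a scaffold bound to the 40S subunit, had 1757, 1695 and 1772 CPM in KO, against 1952, 2021 and 2061 CPM in WT. The groups did not overlap (log2 fold change -0.21, SE 0.05, edgeR adjusted p = 0.0309, up to 0.118 with 1 library left out). Eef1g, a subunit of the factor that recharges eEF1A, had 545, 501 and 459 CPM in KO, against 581, 590.3 and 614 CPM in WT, again without overlap (log2 fold change -0.25, SE 0.06, edgeR adjusted p = 0.0494, up to 0.156 with 1 library left out). Rack1 missed the threshold with any of the 6 libraries left out, and Eef1g with any but KO 1 left out.

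Other parts of the translation machinery stayed nearer to the centre of all genes. Of the 25 initiation factors listed here, 0 were called in edgeR, 16 lay below 0, 1 had all KO values below all WT values and the median was -0.03. Eif3e, Eif3f, Eif3h, Eif3k, Eif3l and Eif4b are initiation factors too, but were counted in the list above. In that order, their log2 fold changes were -0.07, -0.13, -0.13, -0.10, -0.05 and -0.11. All KO values lay below all WT values in these genes except Eif3e and Eif3f. The contrast between the lists therefore depends in part on this placement. The smallest p was that of Eif6, which keeps the subunits apart (log2 fold change -0.09, edgeR adjusted p = 0.429). Of 40 ribosome biogenesis genes, 0 were called in edgeR, 31 lay below 0, 1 had all KO values below all WT values and the median was -0.05. Noc4l, a small subunit assembly factor, had the smallest p, with 36.1, 35.3 and 38.6 CPM in KO and 39.3, 42.5 and 40.1 CPM in WT (log2 fold change -0.15, edgeR adjusted p = 0.229). Whether these lists differ from the ribosomal protein genes was not tested.

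RNA polymerase I, whose genes were listed next, makes the ribosomal RNA. Of all genes tested, 3.25% were called higher and 3.2% lower, so 1 call in a short list is no result about the list. Of 15 tested genes for its subunits and factors, 1 was called higher and 0 lower, with a median of -0.03. The called gene was Ttf1, which ends and helps to start transcription of ribosomal DNA, with 74.7, 70.3 and 72.4 CPM in KO, against 58.7, 63.9 and 62.9 CPM in WT. All KO values lay above all WT values (log2 fold change 0.23, SE 0.05, edgeR adjusted p = 0.0334). It missed the threshold with any library but KO 2 left out (up to 0.160). Of 23 tested regulators of ribosomal protein mRNA, 1 was called lower (beside 3.2% of all genes) and 0 higher, with a median of -0.01. That gene was Myc, a transcription factor that drives ribosome production, with 148, 147 and 160.5 CPM in KO, against 169, 196 and 184 CPM in WT. The groups did not overlap (log2 fold change -0.27, SE 0.06, edgeR adjusted p = 0.0308). It missed the threshold without KO 1, KO 2, WT 2 or WT 3 (up to 0.138).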

How the data were processed

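The values deposited by the authors are whole-number read counts for each gene in each library, not normalized. Tools named in the submitters' processing notes are DESeq2 1.34.0, HISAT2 2.1.0, fastp 0.23.2 and Picard, with build mm10. No source used here names the read counter, its strand setting or its handling of reads with several matches. Genes passing filterByExpr (minimum count 10) were tested with edgeR 4.0.16 (TMM, quasi-likelihood F test, Benjamini-Hochberg adjustment, threshold 0.05), KO against WT without a block. CPM values use TMM library sizes unless called raw. The script was tested on simulated data. Alternatives were other normalizations and filters, DESeq2 1.42.0, limma-voom (limma 3.58.1), a replicate block, each library left out, and copies summed into their gene. Libraries of a genotype differed by more than sampling noise.

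Copies are rows with at least 20% of their 31-base words in a transcript of the gene (GENCODE M21), leaving out rows that the name rule matched. The genes and lists were chosen with earlier results of these data known. Named genes are, per subunit, up to 4 called in each direction by adjusted p; paralog pairs; stalk, 5S, ubiquitin-fusion, Rps6 and Rpsa genes; the highest and lowest per kilobase; and per list up to 3 called genes or the smallest p. Rpl35, Rpl17, Rpl15, Rpl29, Rpl12, Rps12 and Rps13, and the genes picked for their sequence, were chosen after their values were seen. Rack1, Eef1g, Ttf1 and Myc come from the lists. Some genes that the rule names are not reported here.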

Additional observations from a re-analysis of the deposited data

How the results depend on the processing

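The median log2 fold change of the ribosomal protein genes kept its direction under every alternative run (-0.19 to -0.12), as did that of each subunit. The number of genes lower in KO (5) depended on the test and the filter: it was 8 with library size only, 33 without a filter on low counts, 22 in DESeq2, 8 in limma-voom, 2 with the replicate number as a block, 21 at an adjusted p under 0.1 and 11 with copies summed. With 1 library left out it ran from 0 to 14. Among these alternatives, the share of all genes called lower is given above only for DESeq2, limma-voom and copies summed. No gene was higher, except 1 without a filter, Rpl22l1. For the large subunit (3) the same alternatives gave 5 (library size only), 17 (no filter), 11 (DESeq2), 5 (limma-voom), 0 (block), 12 (adjusted p under 0.1) and 8 (copies summed, 5 without KO 3), and 0 to 8 with 1 library left out. For the small subunit (2) they gave 16 (no filter), 11 (DESeq2) and 9 (adjusted p under 0.1), and 0 to 6 with 1 library left out. All genes called (877) came to 1624 without a filter and 1355 at an adjusted p under 0.1, and ran from 344 to 848 with 1 library left out. The cause of these shifts was not tested. The fits with 1 library left out also held fewer samples. Same-numbered libraries of the genotypes deviated with correlations of -0.14, -0.05 and 0.15, so the numbers are not taken as pairs. Under the replicate block, 1 of its 2 called genes was among the 5, and not every library correlated best with its own number.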
